A study of Rattus norvegicus with 4 samples.

Results

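The 10 genes described here encode the carnitine shuttle and the core enzymes of mitochondrial fatty acid oxidation: Cpt1a, Cpt1c, Cpt2, Acadl, Acadm, Acadvl, Hadha, Hadhb, Acaa2 and Etfdh. They were chosen by their known function, with earlier results of these data known. Their probes were found through the transcript identifiers on the array. All 10 had a probe well above background on all 4 arrays, out of 11652 named genes that could be tested. Hadha was measured by 3 probes and each of the others by 1. Cpt1c is counted with the shuttle, although its product sits in the endoplasmic reticulum and has little transferase activity.

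The cells were primary oligodendrocyte precursor cells (OPCs) from the pooled cerebral cortices of Sprague-Dawley rats at postnatal day 2. At the switch from proliferating to differentiating medium, which contains the thyroid hormone T3, they received 50 nM of a siRNA pool against the G protein-coupled receptor GPR17 (siGPR17) or of a non-targeting RNA pool (siNEG). Both groups carried the transfection reagent and the same medium, and both were lysed 48 h later, at day in differentiation 2 (DID 2). RNA of 2 siNEG and 2 siGPR17 samples was hybridised on 4 one-colour Agilent rat arrays. The submitters call the 2 samples of a condition independent. Whether they came from separate cell preparations is not given in the sources used here, so the p-values measure the spread between these samples, which may be technical. Pooled cortices carry no information on single animals, and silencing by siRNA is partial.

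Long-chain fatty acids enter the mitochondrial matrix as carnitine esters. Carnitine palmitoyltransferase 1 (CPT1) makes the ester at the outer membrane, a carrier exchanges it across the inner membrane, and CPT2 returns the acyl group to coenzyme A. In the matrix the chain is then shortened in repeated cycles of dehydrogenation, hydration, a further dehydrogenation and thiolysis, and each cycle releases acetyl-CoA and electrons for the respiratory chain. In the brain this pathway is best known from astrocytes, and in oligodendrocytes it shares its substrates with the synthesis of myelin lipids.

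Promoters are shown for the genes on which the results below turn: Acadm and Etfdh, the only members with an unadjusted p under 0.05, Cpt2, and Hadha, which faces Hadhb. The RefSeq promoter table of the rat assembly GRCr8 held 7 of the 10 genes. Cpt1c, Acadl and Acaa2 were not in it. The 250 bases before the annotated start are printed 5′ to 3′ on the strand of the gene, with matches to the searched motifs in capitals. The window of Acadm is chr2:245542865-245543114 on the minus strand, and its capitals mark a cyclic AMP response element, TGACGTCA. The window of Etfdh is chr2:167060759-167061008 on the minus strand, and its capitals mark an NRF1 motif and a GC box, GGGCGG. The window of Cpt2 is chr5:127910819-127911068 on the minus strand, and its capitals mark 3 GC boxes. The window of Hadha is chr6:31907551-31907800 on the plus strand, and its capitals mark 1 GC box read on the other strand.
Acadm: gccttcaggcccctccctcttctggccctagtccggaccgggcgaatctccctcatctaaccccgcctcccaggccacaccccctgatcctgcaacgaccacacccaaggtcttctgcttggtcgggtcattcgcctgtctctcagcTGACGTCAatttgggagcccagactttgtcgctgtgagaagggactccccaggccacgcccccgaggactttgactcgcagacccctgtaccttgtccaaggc
Etfdh: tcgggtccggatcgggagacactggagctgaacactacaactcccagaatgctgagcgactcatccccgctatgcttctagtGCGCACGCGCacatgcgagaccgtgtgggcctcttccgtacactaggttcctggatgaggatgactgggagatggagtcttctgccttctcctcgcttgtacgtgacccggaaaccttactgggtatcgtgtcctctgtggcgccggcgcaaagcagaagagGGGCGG
Cpt2: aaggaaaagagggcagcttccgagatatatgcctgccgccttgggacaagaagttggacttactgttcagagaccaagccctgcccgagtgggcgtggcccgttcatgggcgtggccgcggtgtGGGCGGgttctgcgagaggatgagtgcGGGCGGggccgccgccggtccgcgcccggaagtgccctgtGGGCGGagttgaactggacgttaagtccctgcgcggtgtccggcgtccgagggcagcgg
Hadha: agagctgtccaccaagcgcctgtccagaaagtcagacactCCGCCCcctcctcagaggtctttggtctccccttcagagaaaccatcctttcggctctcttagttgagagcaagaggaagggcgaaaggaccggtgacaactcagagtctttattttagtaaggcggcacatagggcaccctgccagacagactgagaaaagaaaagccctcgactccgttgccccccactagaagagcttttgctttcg

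The motifs were chosen after the promoters had been read, and both strands of the 250 bases were searched in all 27457 promoters of the table. The GC box occurred in 4 of the 7 member promoters (Cpt2, Hadha, Hadhb and Etfdh) and in 32.4% of all promoters. The Hadha match is the same site as a Hadhb match, read on the other strand, so these 2 promoters are not separate counts. The response element TGACGTCA occurred in Acadm and in 1.7% of all promoters, and the NRF1 motif GCGCANGCGC in Etfdh and in 4.17%. The nuclear receptor half-site AGGTCA occurred in Acadvl, at 2 places, and in 13.7% of all promoters. Its direct repeat with 1 base between the copies, AGGTCANAGGTCA, the letters that receptors of the PPAR family are known to bind, was in 0 of the 7 and in 0.0546% of all promoters. The element TCAAGGTCA of the estrogen-related receptors was in 0 of the 7 and in 0.368%, and it contains the half-site. Hadha and Hadhb, which encode the subunits of one enzyme, lie head to head with annotated starts 301 bases apart, and their upstream windows share 200 bases. A match describes these letters only.

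The 4 arrays were of similar brightness, with 75th percentiles of the processed intensity from 564.9 to 624.1 and with 26997 to 28244 probes well above background, and no spot was saturated. All were hybridised on 1 slide and scanned together. Both siNEG arrays lay in one column of the slide and both siGPR17 arrays in another, so column and treatment cannot be told apart. Gpr17, the targeted gene, had signals of 1107 and 1113 in siNEG and of 652.3 and 639.4 in siGPR17 OPCs, and the groups did not overlap. Its log2 fold change of -0.78 (standard error 0.08) did not pass the adjusted test (limma, Benjamini-Hochberg adjusted p = 0.209). It passed both thresholds with the trend and robust options of eBayes (adjusted p = 0.0152, 1.72-fold lower) and under normexp background correction (adjusted p = 0.0220). Signals here and below are normalised to the 75th percentile of each array and given on a linear scale.

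Comparing GPR17-silenced with control OPCs, 0 of the 10 oxidation genes passed the thresholds of a 1.5-fold change and an adjusted p under 0.07 in limma, beside 0.00357% of all tested probes (1 of 28016). The 95% intervals of the single genes ran from -0.38 to 0.59 on the log2 scale at their extremes. At an unadjusted p under 0.05, 2 genes (Acadm and Etfdh) were higher in siGPR17 and 0 were lower, beside 7.58% of all probes higher and 9.12% lower. The siGPR17 pair was higher than the siNEG pair, without overlap, for 5 genes (Cpt1c, Cpt2, Acadm, Hadhb and Etfdh), beside 27.4% of all probes. For 0 genes was the pair lower without overlap, beside 25.2%, and the arrays of the other 5 genes overlapped. The fitted change was above 0 for 9 genes, beside 51.6% of all probes. The median log2 fold change of the 10 genes was 0.13, against 0.01 over all tested probes, and 28.6% of all probes lay above the median of the genes. The smallest two-sided p that an exact permutation of 2 arrays against 2 allows is 0.33.

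These counts moved with single arrays. Without siNEG replicate 2, 9 genes were higher without overlap and 0 lower, beside 42.4% of all probes higher and 39.0% lower, and the median was 0.20. Without siGPR17 replicate 1, 8 were higher and 0 lower, beside 36.9% and 34.0%. Without siNEG replicate 1, 5 were higher and 2 lower, beside 42.3% and 41.1%. Without siGPR17 replicate 2, 5 were higher and 1 lower, beside 35.6% and 33.9%. The median was 0.15 without siGPR17 replicate 1, 0.13 without siGPR17 replicate 2 and 0.12 without siNEG replicate 1. In these fits the lone array of a group is assumed to vary like the other group, and a lone array overlaps less often by construction.

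**Figure D1:**
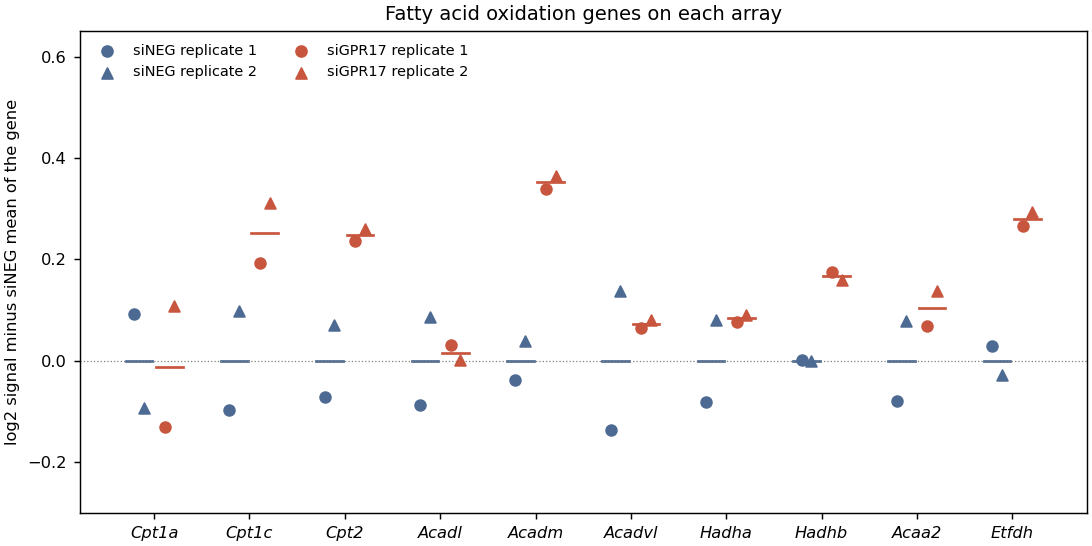
Each point is 1 array, as its log2 signal minus the siNEG mean of that gene, with circles for replicate 1, triangles for replicate 2 and lines for group means. The red siGPR17 points lie above both blue siNEG points for Cpt1c, Cpt2, Acadm, Hadhb and Etfdh, and the colours overlap for the other 5 genes.

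In the carnitine shuttle, Cpt2 and Cpt1c were higher on both siGPR17 arrays, and Cpt1a was not. Cpt1a encodes the widely expressed CPT1 that malonyl-CoA inhibits and that is regarded as the rate-controlling step of the pathway. Its probe (A_44_P357870) gave signals of 238.4 and 209.6 in siNEG and of 204.3 and 240.8 in siGPR17. The lowest and the highest of the 4 arrays were both siGPR17 arrays. The log2 fold change was -0.01 (standard error 0.13, 95% interval -0.38 to 0.36, adjusted p = 0.974 in limma), and it turned to 0.08 without siNEG replicate 1 and to 0.11 without siGPR17 replicate 1.

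Cpt1c encodes a neuronal relative of CPT1 that sits in the endoplasmic reticulum and has little transferase activity. Its probe (A_44_P552915) gave 1212 and 1388 in siNEG and 1483 and 1610 in siGPR17. The groups did not overlap, but the difference between the siNEG arrays was larger than the gap between the groups. The fitted log2 fold change was 0.25 (standard error 0.12, 95% interval -0.06 to 0.57, adjusted p = 0.358 in limma).

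Cpt2 encodes the transferase of the inner membrane. Its probe (A_42_P601920) gave 1705 and 1882 in siNEG and 2110 and 2144 in siGPR17. The siGPR17 arrays lay close together and above both siNEG arrays. On the log2 scale the fold change was 0.25 (standard error 0.10, 95% interval -0.02 to 0.52, adjusted p = 0.318 in limma).

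The acyl-CoA dehydrogenases open each cycle, and the enzymes differ in the chain length they prefer. Acadm, the medium-chain enzyme, showed the largest difference of the 10 genes. Its probe (A_42_P540774) gave 1775 and 1872 in siNEG and 2307 and 2345 in siGPR17, or 1823 ± 68.7 and 2326 ± 27.1 (SD, n = 2 each). The groups were well apart relative to the spread within them. The fold change was 1.28 (95% interval 1.08 to 1.51), a log2 fold change of 0.35 (standard error 0.09), with an unadjusted p of 0.0153 and an adjusted p of 0.232 in limma. Of all tested probes 9.18% had a log2 fold change at or above it.

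The long-chain enzymes differed less. Acadl, the long-chain dehydrogenase (probe A_43_P14184), gave 7530 and 8501 in siNEG and 8171 and 8004 in siGPR17, so that both siGPR17 arrays lay between the siNEG arrays. Its log2 fold change was 0.02 (standard error 0.10, 95% interval -0.27 to 0.30, adjusted p = 0.953 in limma), and without siNEG replicate 1 it was -0.07. Acadvl, the very-long-chain dehydrogenase of the inner membrane (probe A_42_P606073), gave 2438 and 2949 in siNEG and 2806 and 2836 in siGPR17. Here too both siGPR17 arrays lay between the siNEG arrays. The log2 fold change was 0.07 (standard error 0.13, 95% interval -0.27 to 0.42, adjusted p = 0.799 in limma), and without siNEG replicate 1 it was -0.06.

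Hadha and Hadhb encode the subunits of the trifunctional protein, which carries out the later steps of the cycle on long chains. For Hadha the brightest probe (A_44_P1082214) gave 35461 and 39691 in siNEG and 39570 and 39952 in siGPR17, which overlapped. Its log2 fold change was 0.08 (standard error 0.10, 95% interval -0.19 to 0.36, adjusted p = 0.700 in limma). The second probe (A_44_P1153310) gave 16071 and 16531 in siNEG and 18062 and 18643 in siGPR17. It did not overlap, with a log2 fold change of 0.17. The third probe (A_64_P055984) gave 3199 and 3322 in siNEG and 3431 and 3391 in siGPR17, and it also did not overlap, with a log2 fold change of 0.07. The 3 probes therefore shared a direction but not the separation of the groups.

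For Hadhb (probe A_42_P655644) the signals were 1431 and 1429 in siNEG and 1614 and 1596 in siGPR17. The groups were apart and each pair of arrays nearly equal. The log2 fold change was 0.17 (standard error 0.08, 95% interval -0.06 to 0.40, adjusted p = 0.393 in limma). The standard error is wider than these signals alone would give, since limma draws the spread of a probe towards that of all probes. Acaa2 encodes a mitochondrial thiolase that splits off acetyl-CoA. Its probe (A_44_P242321) gave 645.0 and 719.3 in siNEG and 714.1 and 749.7 in siGPR17, which overlapped. For this probe the log2 fold change was 0.10 (standard error 0.10, 95% interval -0.18 to 0.39, adjusted p = 0.639 in limma).

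Etfdh encodes the ubiquinone oxidoreductase that passes electrons from the acyl-CoA dehydrogenases, through the electron transfer flavoprotein, to the respiratory chain. Its probe (A_44_P522396) gave 1787 and 1717 in siNEG and 2107 and 2146 in siGPR17, or 1752 ± 49.1 and 2127 ± 27.9 (SD, n = 2 each). The groups did not overlap. The fold change was 1.21 (95% interval 1.03 to 1.43), a log2 fold change of 0.28 (standard error 0.09), with an unadjusted p of 0.0304 and an adjusted p of 0.265 in limma.

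**Figure D2:**
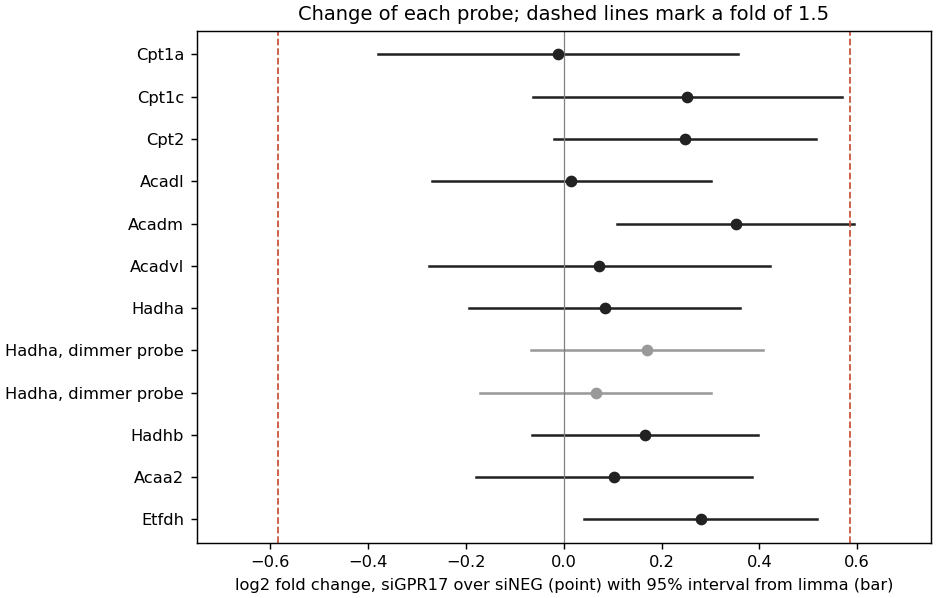
The log2 fold change of each probe, siGPR17 over siNEG, is a point and its 95% interval from limma a bar, with the dimmer Hadha probes in grey. The intervals of Acadm and Etfdh lie above 0 before adjustment, those of the other probes cross 0, and only the interval of Acadm reaches the dashed line of a 1.5-fold change, at its upper end.

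Each row of the slide held 1 array of each group, so the difference could also be taken within a row. It was above 0 for 9 of the 10 genes in row 1, with a median of 0.19 on the log2 scale. In row 2 it was above 0 for 8 of the 10, with a median of 0.17. These values use the same arrays again, and the rows are not shown to pair the samples. The matching share over all probes is not given here. Acadm was higher by 0.38 in row 1 and by 0.33 in row 2, and Etfdh by 0.24 and 0.32. Cpt1a went in opposite directions, with -0.22 in row 1 and 0.20 in row 2. Acadl (0.12 and -0.09) and Acadvl (0.20 and -0.06) also changed sign between the rows, and the other 7 genes kept a positive difference in both.

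The other genes of the pathway were described in the same fit, as lists in which 0 genes passed the thresholds, as reported and under each of the 15 alternatives. Scaling on spike-in controls added 0.13 to each log2 fold change and to the median of all probes, so signs near 0 are relative to the scaling. The list counts at an unadjusted p under 0.05 in limma stand beside 7.58% of all probes higher and 9.12% lower. Among 5 other genes of carnitine handling, 4 changes were above 0 and 1 was below, with a median log2 fold change of 0.07. That median was -0.03 without siGPR17 replicate 1, 0.13 without siGPR17 replicate 2 and 0.15 without siNEG replicate 1. Cpt1b, the muscle form of CPT1, gave 936.1 and 891.0 in siNEG and 1115 and 1084 in siGPR17, and it was the only one at an unadjusted p under 0.05 (log2 fold change 0.27, adjusted p = 0.277 in limma). The carrier Slc25a20 (log2 fold change 0.03) overlapped between the groups, as did the carnitine transporter Slc22a5 (0.07) and Crat (-0.02), whose product is a short-chain acyltransferase.

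Of 12 further genes of mitochondrial oxidation, 8 were above 0 and 4 below. At an unadjusted p under 0.05 in limma, 2 were higher and 0 lower, beside 7.58% and 9.12% of all probes. Without overlap between the groups, 5 were higher and 2 lower, beside 27.4% and 25.2%. The median log2 fold change was 0.06. Without siNEG replicate 1 that median was -0.02, and without siNEG replicate 2 it was 0.12. Acads, the short-chain dehydrogenase, gave 2174 and 2447 in siNEG and 2959 and 2858 in siGPR17 (log2 fold change 0.33, adjusted p = 0.265 in limma). Etfa, a subunit of the electron transfer flavoprotein, gave 1047 and 1016 in siNEG and 1310 and 1230 in siGPR17 (0.30, adjusted p = 0.261 in limma). Its partner Etfb gave -0.02 and overlapped. Echs1, the short-chain enoyl-CoA hydratase, lay the other way: 18911 and 23964 in siNEG and 16878 and 16129 in siGPR17, a log2 fold change of -0.37 that did not pass (adjusted p = 0.321 in limma). With either siGPR17 array left out, the median of these 12 genes was 0.06. For the products of odd chains, Pcca (0.09), Pccb (-0.16) and Mcee (0.11) were tested and Mmut had no named probe.

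Peroxisomes shorten very long and branched chains by a parallel route. Of 15 genes of that route 13 were tested, 7 above and 6 below 0, with a median of 0.02, and Acox2 and Acox3 were not well above background on any array. With 1 array left out the median was -0.01 (siNEG replicate 1), 0.12 (siNEG replicate 2), 0.09 (siGPR17 replicate 1) or 0.06 (siGPR17 replicate 2). Ehhadh, the peroxisomal bifunctional enzyme, gave 175.5 and 166.2 in siNEG and 257.7 and 249.3 in siGPR17. Its log2 fold change of 0.57 (standard error 0.09) was larger than that of any of the 10 genes described above, with an adjusted p of 0.209 in limma. Under normexp background correction Ehhadh was at 0.38 and Acadm at 0.36. Abcd2, a transporter of very-long-chain acyl-CoA, gave 795.4 and 831.7 in siNEG and 698.7 and 635.5 in siGPR17 (-0.29, adjusted p = 0.285 in limma). Acaa1a (0.10) and Acaa1b (0.09), the peroxisomal thiolases, are near-identical copies, and their probes may share signal. A dimmer probe of Acaa1a gave -0.05.

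Among 14 genes that control the pathway, 12 were tested, 9 above and 3 below 0, with a median of 0.12, and Pparg and Acacb were not well above background on any array. Without siNEG replicate 1 the median was 0.001. Ppara, the nuclear receptor that drives transcription of oxidation genes in liver, gave 210.7 and 283.2 in siNEG and 163.4 and 149.8 in siGPR17. The groups did not overlap, and the log2 fold change of -0.64 (standard error 0.18) did not pass (adjusted p = 0.243 in limma). Prkaa2, a catalytic subunit of the AMP-activated kinase, gave 223.2 and 213.4 in siNEG and 153.2 and 141.4 in siGPR17 (-0.57, adjusted p = 0.209 in limma). The other catalytic subunit gene, Prkaa1, gave 0.05 and overlapped at its brightest probe, while a dimmer probe gave 0.25 without overlap (adjusted p = 0.283 in limma). The coactivator Ppargc1a overlapped too (0.38, standard error 0.36). Rxra, the partner of the PPARs, gave 40.6 and 32.0 in siNEG and 48.7 and 53.0 in siGPR17 (0.49, adjusted p = 0.263 in limma). Acaca, whose product makes the CPT1 inhibitor malonyl-CoA, gave 0.11 and overlapped.

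Of 10 other known PPAR targets 6 were tested, 2 above and 4 below 0, with a median of -0.10, and with spike-in scaling this median was 0.03. It was -0.05 without siNEG replicate 2 and -0.05 without either siGPR17 array. Acot1, an acyl-CoA thioesterase, was the only one at an unadjusted p under 0.05, with 188.6 and 215.8 in siNEG and 260.8 and 308.7 in siGPR17 (0.49, adjusted p = 0.245 in limma). Pdk4, Ucp2, Angptl4 and Cd36 were not well above background on any array. For the use of ketone bodies, Bdh1 (0.004) and Oxct1 (0.01, with -0.18 at a dimmer probe) overlapped between the groups. Among 11 genes of general mitochondrial content, such as the import receptor Tomm20 and the citrate synthase gene Cs, 9 were above and 2 below 0, with a median of 0.11, close to the 0.13 of the oxidation genes. Without siNEG replicate 1 the median of the content genes was 0.03, beside 0.12 for the oxidation genes. Under quantile normalization it was 0.05 beside 0.14, and with all probes of a gene averaged 0.15 beside 0.14. Tomm40, part of the import pore, was the only one at an unadjusted p under 0.05 (0.30, adjusted p = 0.270 in limma).

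**Figure D3:**
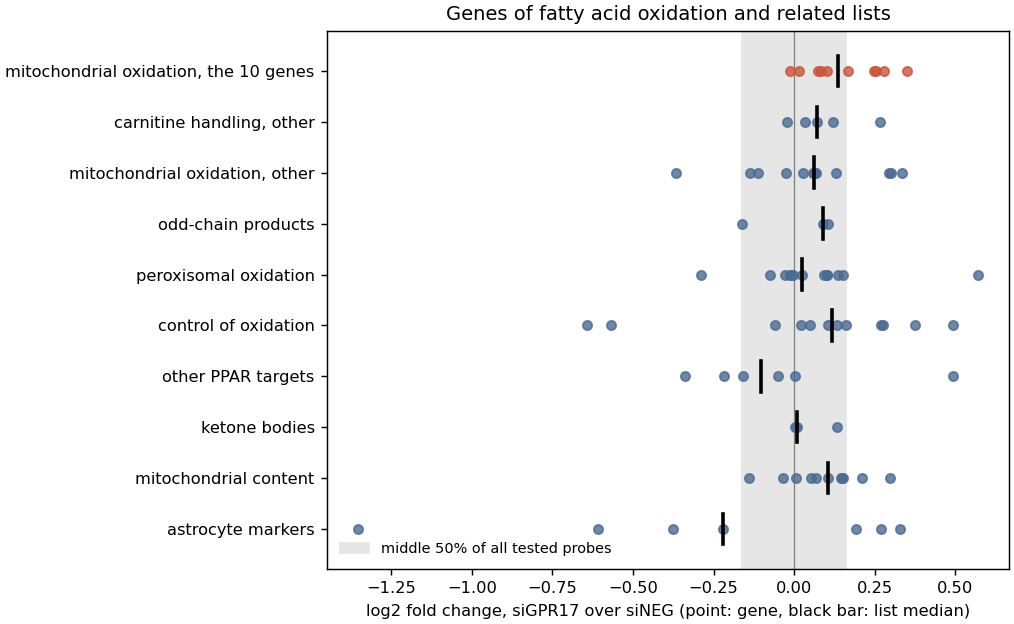
Each point is the log2 fold change of 1 gene, siGPR17 over siNEG, black bars are list medians, and the grey band spans the middle 50% of all tested probes, from -0.16 to 0.16. The 10 oxidation genes (red) lie between -0.01 and 0.35, 5 of them to the right of the band. The lists of other mitochondrial oxidation genes, of control and of peroxisomal oxidation spread to both sides of the band.

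In RNA from a whole culture, fewer cells of a type and less RNA per cell cannot be told apart. Markers of other cells were therefore read on the same arrays. All 7 astrocyte markers were tested, 3 above and 4 below 0, with a median of -0.22, and their summed signal was 7985 and 8439 in siNEG and 6418 and 6346 in siGPR17. Gfap (-0.61), Aqp4 (-1.35), Slc1a3 (-0.37) and Slc1a2 (-0.22) were lower on both siGPR17 arrays, whereas Aldh1l1 (0.27), Gja1 (0.33) and Sox9 (0.19) overlapped between the groups. The adjusted p of Gfap was 0.216 and that of Aqp4 0.209 in limma. With trend and robust options Gfap (adjusted p = 0.0616) and Aqp4 (0.0203) passed both thresholds, and Aqp4 did so under normexp too (0.0173). Of 7 microglial markers 6 were tested, 1 above and 5 below 0, with summed signals of 3804 and 2572 in siNEG and 2559 and 3034 in siGPR17, and Csf1r stayed near background throughout. All 6 neuronal markers were below 0 at their brightest probe (a dimmer one of Syt1 gave 0.26; under spike-in scaling Rbfox3 was at 0.03 and Syt1 at 0.13), with summed signals of 6777 and 8077 in siNEG and 6619 and 6353 in siGPR17. The endothelial markers Pecam1 and Cldn5, and Dcn, Lum, Pdgfrb and Rgs5 of fibroblasts and mural cells, were not well above background on any array. The summed signal of the 2 tested endothelial markers, Cdh5 and Tek, was 103.3 and 103.8 in siNEG and 125.1 and 147.6 in siGPR17, and that of Col1a1 and Col1a2 was 386.1 and 288.9 against 394.1 and 392.2.

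The genes listed as OPC markers, Pdgfra, Cspg4, Ptprz1, Olig1, Olig2 and Sox10, gave signals on all 4 arrays, which alone do not give the stage. All 6 were below 0, though Olig1 and Sox10 were above 0 under spike-in scaling (0.03 and 0.12) and without siNEG replicate 2 (0.03 and 0.07). The list had a median of -0.19 (-0.07 without siNEG replicate 2) and summed signals of 211136 and 251255 in siNEG and of 205082 and 207278 in siGPR17. Of 7 markers of mature oligodendrocytes 6 were tested, 2 above and 4 below 0, with a median of -0.23 (-0.11 without siNEG replicate 2). Mbp was higher (log2 fold change 0.32) and Mog lower (-0.67) on both siGPR17 arrays, and neither passed the adjusted test. Mog passed both thresholds with trend and robust options (adjusted p = 0.0387 in limma) and under normexp (adjusted p = 0.0461). In contrast to its median, the summed signal of this list, to which the Mbp probe gave the most, was higher in siGPR17, with 285725 and 320941 in siNEG and 336986 and 350857 in siGPR17. The part of these other cells, and of the stage of the cells, in the values of the oxidation genes was not tested.

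**Figure D4:**
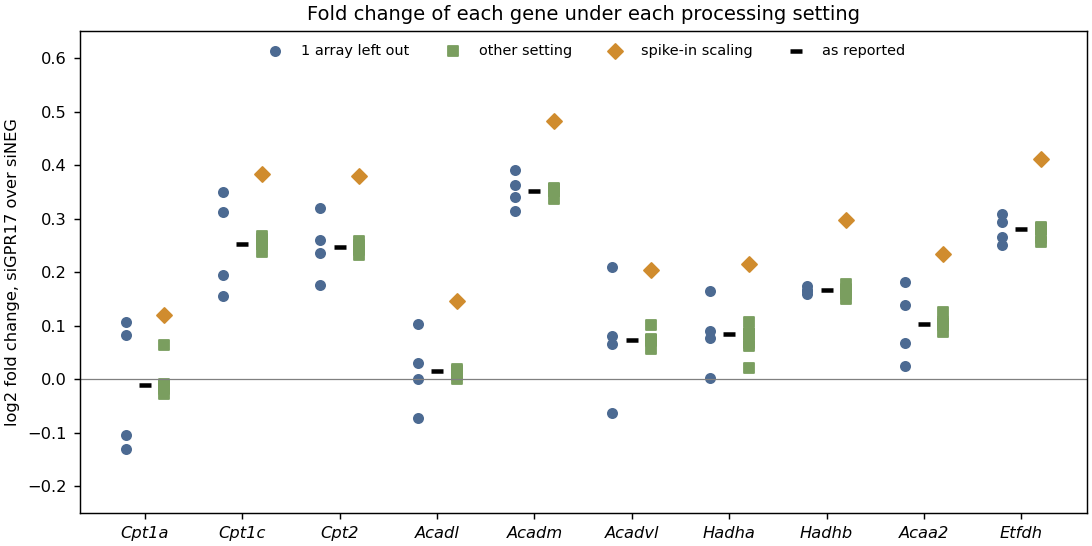
For each gene the reported log2 fold change (black bar) stands beside its values with 1 array left out (blue), under spike-in scaling (orange) and under the other settings (green). Cpt1c, Cpt2, Acadm, Hadha, Hadhb, Acaa2 and Etfdh stay above 0 in all 15 alternatives, while Cpt1a, Acadl and Acadvl cross 0 in some. Alternatives that change only the tested probes or the estimate of the spread cannot move a fold change.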

How the data were processed

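The authors deposited spot intensities, 1 file an array, from Agilent Feature Extraction 10.7.3.1. The processed intensities were background-subtracted by that software and not normalised between arrays. Other columns of the deposited files flag spots as well above background, saturated or outlying. Here log2 values were computed, control and outlier spots left out, spots of a probe averaged, and the 75th percentile of each array over 45565 complete probes subtracted. The 28016 probes well above background on at least 2 of 4 arrays were tested with limma 3.58.1 in R 4.3.3 (lmFit, eBayes, two-sided, Benjamini-Hochberg over all tested probes), without a block. The thresholds are those of the study's methods. Linear signals are normalised values times 1 common factor. A RefSeq gene table (assembly GRCr8) named 21102 of 45598 probes through their transcript identifiers, compared without versions. The array was designed on another build, so probes have no coordinates here.

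The brightest tested probe represents a gene, and probes of another direction are reported. All 10 oxidation genes, Gpr17 and any gene of the written lists could be named, and the results of some list genes are not reported here. Members and lists were chosen with earlier results of these data known. Normexp (offset 50) used the deposited median spot and background intensities. Code was tested on simulated data. The number of arrays limits the precision.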

Additional observations from a re-analysis of the deposited data

How the results depend on the processing

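Over 15 alternative settings, 0 of the 10 genes passed the thresholds. Of 150 values, 10 genes in each alternative, 143 kept their direction and their side of the threshold and 7 changed sign. Alternatives that change only which probes are tested, or how the spread is estimated, leave each fold change as it was. In these the direction was fixed in advance, and averaging the probes of a gene could move only Hadha. Cpt1a was at 0.064 under normexp background correction and 0.12 under spike-in scaling. It ranged from -0.13 to 0.11 when 1 array was left out, above 0 without siNEG replicate 1 or siGPR17 replicate 1. Acadl was at -0.0005001 with the 75th percentile taken over spots, an alternative chosen after seeing the data, and it ranged from -0.072 to 0.103 when 1 array was left out. Acadvl ranged from -0.064 to 0.21. Both were below 0 without siNEG replicate 1. The number of genes at an unadjusted p under 0.05 was 2 as reported, beside 16.7% of all probes. It was 4 under normexp (19.5% of all probes), 4 under spike-in scaling (17.2%) and 4 with the trend and robust options of eBayes (20.3%). It fell to 1 with the replicate number as a block, so the count moved both ways. With 1 array left out, a group holds a lone array, so this count is not given for those fits. In them the log2 fold change ranged from 0.31 to 0.39 for Acadm and from 0.25 to 0.31 for Etfdh. The number of genes whose arrays did not overlap, 5 as reported, was 9 under spike-in scaling, all higher, where 44.9% of all probes were apart and higher and 12.5% apart and lower. It ranged from 6 to 9 when 1 array was left out, with 2 of 7 lower without siNEG replicate 1 and 1 of 6 lower without siGPR17 replicate 2. The median of the genes was 0.27 under spike-in scaling and ranged from 0.12 to 0.20 when 1 array was left out. An unpaired t-test put 3 genes at an unadjusted p under 0.05, beside 13.0% of all probes. After Benjamini-Hochberg adjustment it put 0 past the thresholds. The study's methods name this test for comparisons of 2 groups, and their array section names no test. Spike-in scaling moved the median of all probes by 0.13, and relative to that median Cpt1a was at -0.02 and Acadm at 0.34. With trend and robust options the adjusted p of Acadm was 0.0664 at an unchanged fold of 1.28, below the fold threshold. Over all alternatives that adjusted p ranged from 0.0664 to 0.755. Over all tested probes 1 passed the thresholds as reported, 242 under normexp, 420 with trend and robust options, and 0 in others such as spike-in scaling. The cause of these changes was not tested.

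The replicate numbers are not shown to pair the samples: deviations of same-numbered arrays correlated at -0.07 over probes. With the replicate number as a block, 1 gene (Acadm) was at an unadjusted p under 0.05, and its adjusted p was 0.414. All 10 genes were well above background on all arrays.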
